A study of Caenorhabditis elegans with 16 samples.

Results

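A tRNA gene peak is a peak that overlapped by at least 1 base a gene of biotype tRNA in the Ensembl annotation of WBcel235 on chromosomes II, III, IV, V or X. There were 368 such peaks among 29131 peaks in all, 1.26%, with 191 on the autosomes II to V and 177 on X. A further 41 peaks over tRNA genes on the remaining autosome were not analysed here, and no mitochondrial peak was counted.

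Transfer RNA genes are short genes that RNA polymerase III transcribes from promoters lying inside the gene itself. The factor TFIIIC binds the A box and B box within the transcribed sequence and brings in TFIIIB, which recruits the polymerase, and the repressor MAF1 restrains this when growth slows. RNA polymerase III makes tRNAs and 5S rRNA, whereas RNA polymerase I makes the large rRNA precursor in the nucleolus. Accessibility of tRNA genes is given here with and without depletion of an RNA polymerase I subunit or a large ribosomal subunit assembly factor.

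The peaks come from ATAC-seq, in which the Tn5 transposase cuts accessible DNA, performed on whole Caenorhabditis elegans larvae of the first stage (L1), with 4 libraries for each of 4 strains. RPOA-2 depleted larvae carried rpoa-2::degron, a tag on a subunit of RNA polymerase I, with eft-3p::tir-1, and RPOA-2 undepleted larvae carried rpoa-2::degron without TIR1. GRWD-1 depleted larvae carried the degron on GRWD-1, a factor of large ribosomal subunit assembly that the labels call RRB-1, with eft-3p::tir-1, and GRWD-1 undepleted larvae carried the same degron without TIR1. TIR1 is the plant protein through which auxin marks a tagged protein for destruction, and the eft-3 promoter that drives it is active in most cells. All larvae were grown at 23 °C on 1 mM auxin, for 24 h with TIR1 and for 18 h without it, so depletion, the transgene and the later collection cannot be told apart. The larvae of a strain were grown together and then split into 4 replicates, so p-values measure only the spread between libraries from shared larvae.

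Each library held 2337415 to 13010378 counted reads, and all 368 tRNA gene peaks averaged at least 34 reads a library. No pair of libraries within a group was as alike as counting error alone would make them, with a chi-square per degree of freedom of 1.87 to 11.8 over 24 pairs. In a bulk sample of whole larvae, fewer cells with an open site and less opening per cell cannot be told apart. Of 18 marker genes of intestine, epidermis, muscle, pharynx, neurons and germline, 12 had a peak within 1000 bp of their 5′ end, and 0 of these passed the test upon RPOA-2 or GRWD-1 depletion, while 2 had an unadjusted p under 0.05 in each (edgeR's quasi-likelihood test).

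The annotation holds 546 tRNA genes on chromosomes II to V and X, of which 276 lie on X alone. A peak lay over 448 of them, 82.1%. The share was 84.1% on the autosomes (227 of 270) and 80.1% on X (221 of 276), and it ranged from 91.2% on II (52 of 57) to 75.6% on V (59 of 78). The aligned reads had been filtered on mapping quality, which removes reads that fit several places equally well, so identical tRNA copies may be undercounted, and a tRNA gene without a peak cannot be called closed. The tRNA gene peaks made up 3.01% of all peaks on X and 1.03% of all peaks on chromosomes II to V.

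Most of these peaks held 1 tRNA gene (302 peaks), 57 held 2, 6 held 3, 2 held 4 and 1 held 6. Among the 57 with 2 genes, 42 had them on opposite strands, 30 facing away from each other and 12 facing each other, and 15 had them on the same strand. A whole tRNA gene lay inside 330 peaks, 89.7%. The midpoint of the nearest tRNA gene was a median of 92.2 bp from the midpoint of the peak, and within 100 bp in 191 peaks (51.9%). A protein-coding gene was also covered by 240 peaks, 77.5% of those on the autosomes and 52.0% of those on X. In 49 peaks the overlap included a 5′ untranslated region, so that at these the opening of the tRNA gene and of a neighbouring RNA polymerase II promoter cannot be told apart.

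The tRNA gene peaks were among the most accessible in the larvae. Their levels are given per kb of peak as CPM (read counts relative to library size after scaling with TMM factors), averaged over the 16 libraries. The median was 88.5 CPM per kb on the autosomes and 83.4 on X, against 52.4 over all 29131 peaks. Of the 368, 337 (91.6%) lay above the median of all peaks, and the median tRNA gene peak stood at percentile 94.9. They were also long, with a median of 782 bp against 381 bp over all peaks, but the 7491 peaks of similar length (535 to 1154 bp) had a median of 55.6 CPM per kb, and the 154 peaks over snoRNA genes had 72.2. Within the 368, peaks with 2 or more tRNA genes had a median of 93.3 CPM per kb and peaks with 1 tRNA gene 84.7, while the 38 peaks that held only part of a tRNA gene had 55.5, close to the median of all peaks. These 38 were also short, with a median of 197.5 bp against 825 bp for peaks with a whole tRNA gene, and the part of length was not tested.

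**Figure D1:**
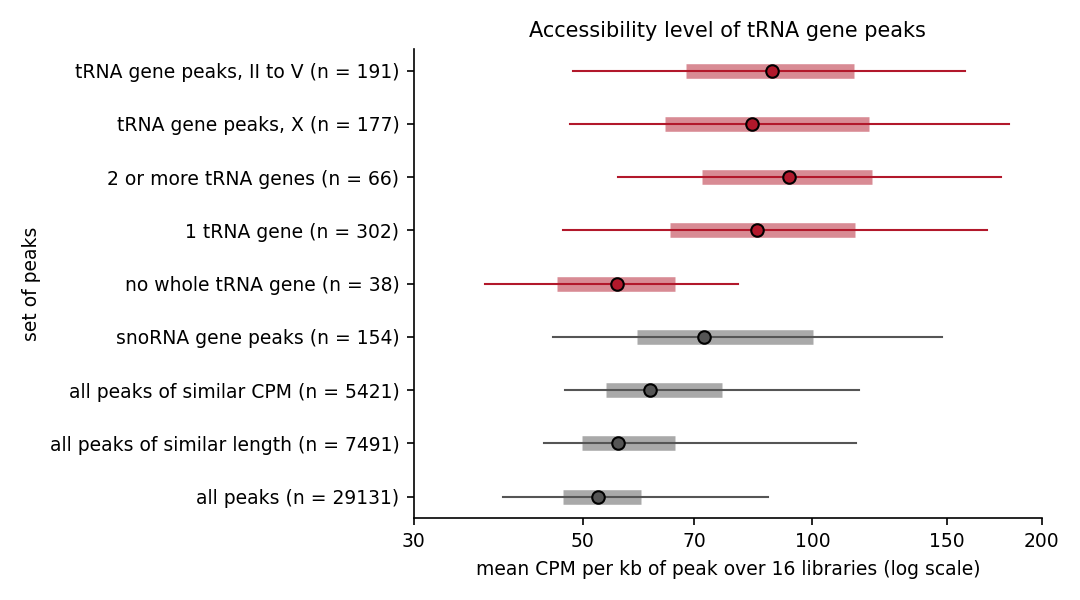
Accessibility of sets of peaks as mean CPM per kb of peak over 16 libraries (log scale). Points are medians, thick bars run from the first to the last quartile and thin lines from the 5th to the 95th percentile; tRNA gene peaks (red) have medians of 88.5 on chromosomes II to V and 83.4 on X, against 52.4 for all peaks, and peaks holding only part of a tRNA gene have 55.5.

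The highest levels per kb on the autosomes were found at 3 peaks on chromosome V. The peak over Y39B6A.t9 (V:19125668-19126286) averaged 315 CPM per kb in RPOA-2 depleted and 279 in RPOA-2 undepleted larvae, and 313 in GRWD-1 depleted and 291 in GRWD-1 undepleted larvae. The peak over F57F5.t1, which also covers the 5′ untranslated region of gcy-33, a guanylyl cyclase gene, and the peak over the opposed pair T23F1.t1 and T23F1.t2 averaged 256 and 232 CPM per kb over all libraries. On X the highest levels were 240.4 CPM per kb at the pair F46G11.t2 and F46G11.t1 and 219.6 at C04A11.t1. None of these 5 peaks passed the test in either depletion, and their log2 fold changes lay between -0.12 and 0.14.

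The share of all counted reads that fell in the tRNA gene peaks was followed first, since a general loss or gain of accessibility at RNA polymerase III genes would move it. On the autosomes it was 1.74, 1.84, 2.15 and 1.73% in the 4 RPOA-2 depleted libraries and 1.53, 1.94, 1.98 and 2.25% in the RPOA-2 undepleted libraries. These values overlapped, and the means of 1.86 ± 0.194% and 1.92 ± 0.298% (SD, n = 4 each) differed by less than either SD. In GRWD-1 depleted larvae the autosomal share was 1.68, 2.00, 2.35 and 2.14%, against 1.65, 2.01, 2.18 and 2.19% in GRWD-1 undepleted larvae. These values overlapped again, with means of 2.04 ± 0.282% and 2.01 ± 0.253% (SD, n = 4 each). They include the peak over F44A2.t1, found only through the GRWD-1 depleted libraries (described below), which averaged 80.0 CPM in GRWD-1 depleted and 0.0691 CPM in GRWD-1 undepleted larvae. On X the means were 1.56 ± 0.206% in RPOA-2 depleted and 1.61 ± 0.312% in RPOA-2 undepleted larvae, and 1.69 ± 0.300% in GRWD-1 depleted and 1.70 ± 0.250% in GRWD-1 undepleted larvae (SD, n = 4 each). In each group the share over all 368 peaks varied more between replicates, from 2.70% to 4.17% in RPOA-2 undepleted larvae, than between depleted and undepleted means. Replicate 1 had the lowest share of its group in all 4 strains, 3.13% in RPOA-2 depleted, 2.70% in RPOA-2 undepleted, 2.97% in GRWD-1 depleted and 2.99% in GRWD-1 undepleted larvae. The labels describe 4 processing batches with a replicate of each strain in each, without saying that the replicate number is the batch.

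**Figure D2:**
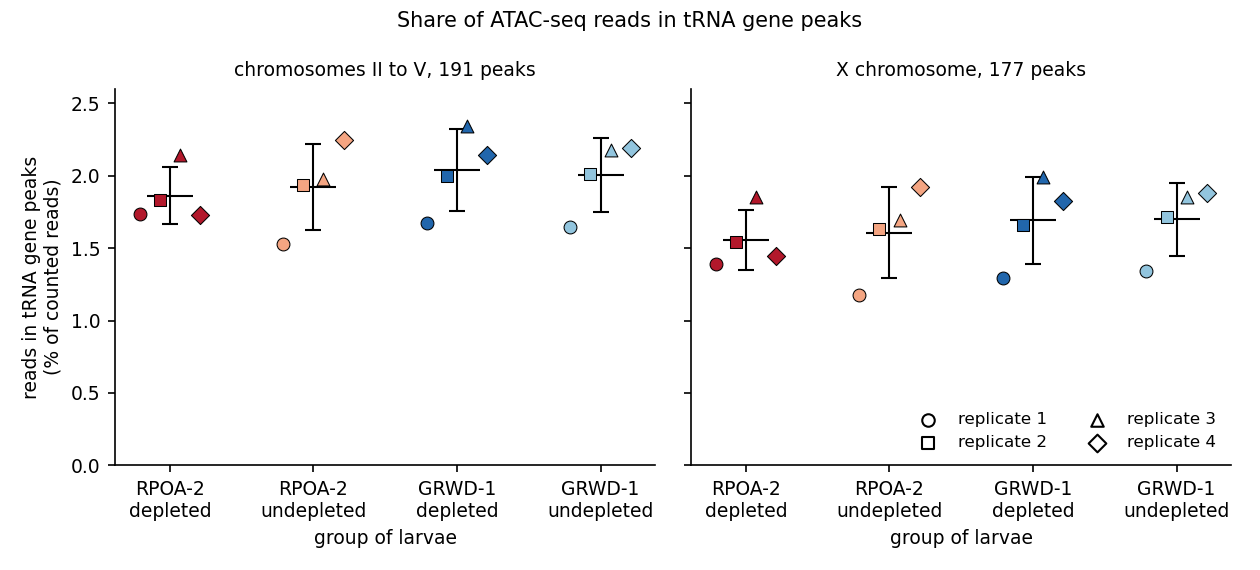
Percent of the counted reads of each library that lie in tRNA gene peaks, for 191 peaks on chromosomes II to V (left) and 177 peaks on X (right). Each point is a library, its shape gives the replicate number, and bars give the mean and SD of 4 libraries; depleted and undepleted libraries overlap in each panel, and the lowest library on X in each group is replicate 1.

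Upon RPOA-2 depletion 3 tRNA gene peaks rose and 6 fell at an adjusted p under 0.05 (edgeR's quasi-likelihood test over all 29131 peaks). On the autosomes 0 rose and 3 fell, and on X 3 rose and 3 fell. At an unadjusted p under 0.05 (edgeR), 4 were higher and 20 lower on the autosomes, and 12 higher and 25 lower on X. The whole set of 29131 peaks had 2011 higher and 1560 lower at that unadjusted p. Over all peaks 1.19% rose and 0.487% fell, while 0.815% of the tRNA gene peaks rose and 1.63% fell. Peaks with many reads reach the threshold at smaller changes, and among the 5421 peaks with a mean CPM within the quartiles of the tRNA gene peaks (39.4 to 124 CPM) 3.03% rose and 1.16% fell. With counts as small as 3 and 6, nothing particular to tRNA genes is read from these shares. The median log2 fold change was -0.02 on the autosomes and -0.04 on X, against 0.0035 over all tested peaks, 0.01 over all peaks on II to V and -0.01 over all peaks on X. From the first to the last quartile the autosomal tRNA gene peaks lay between -0.11 and 0.08. Both medians were above 0 (0.09 and 0.08) with control peaks chosen in the GRWD-1 strains, so no direction is given to the tRNA gene peaks as a whole.

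The rise that stood out was at F27D9.t1 on X (X:7680389-7681820), in a peak that also covers the 5′ untranslated region of stn-2, which encodes a syntrophin, an adaptor of the dystrophin complex. It had 127, 137, 152 and 137 CPM in RPOA-2 depleted larvae and 64.7, 91.9, 79.8 and 111 CPM in RPOA-2 undepleted larvae. The depleted libraries did not overlap with the undepleted ones. The difference was 0.69 on the log2 scale, with a standard error of 0.0812 and an adjusted p of 1.88e-09 (edgeR, n = 4 each).

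The other rises were at C30E1.t1 and C25F6.t4, both on X. The peak over C30E1.t1 is 3969 bp long and its tRNA gene lies 1705 bp from the middle, so the peak reaches far beyond that gene. It had 833, 1171, 903 and 684 CPM in RPOA-2 depleted and 485, 701, 763 and 798 CPM in RPOA-2 undepleted larvae, which overlap (log2 fold change 0.35, adjusted p = 0.00186, edgeR). C25F6.t4 lies 24 bp from the middle of a 439 bp peak that covers no protein-coding gene. That peak had 20.9, 27.7, 30.1 and 28.0 CPM in RPOA-2 depleted and 15.5 to 21.8 CPM (18.4 ± 2.71, SD, n = 4) in RPOA-2 undepleted larvae, a difference of 0.52 on the log2 scale (adjusted p = 0.0200, edgeR). Only the lowest depleted library of C25F6.t4 fell below the highest undepleted one.

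Among the falls, 5 of 6 were at peaks that held 2 tRNA genes. The largest was at the pair C48C5.t3 and C48C5.t1 on X (X:8969300-8969997), which face away from each other and cover no protein-coding gene. This peak had 51.1, 56.0, 50.1 and 51.7 CPM in RPOA-2 depleted larvae and 44.6, 72.8, 94.7 and 93.2 CPM in RPOA-2 undepleted larvae, so that replicate 1 of the undepleted larvae lay below all depleted libraries and the other replicates above them. Its log2 fold change of -0.47 had a standard error of 0.102 and an adjusted p of 0.00341 (edgeR). The pair C52E12.t3 and C52E12.t2 on chromosome II (II:7002707-7003506) lies in a peak that covers an exon of unc-104, a kinesin gene, and had 45.3, 53.2, 52.6 and 35.8 CPM in RPOA-2 depleted and 52.2, 60.6, 71.6 and 69.6 CPM in RPOA-2 undepleted larvae (log2 fold change -0.40, adjusted p = 0.0212, edgeR).

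Y57G11B.t1 on chromosome IV was the fall with 1 tRNA gene, at 45.3 ± 8.10 CPM in RPOA-2 depleted and 61.5 ± 19.5 CPM in RPOA-2 undepleted larvae (SD, n = 4 each), a log2 fold change of -0.39. The smaller falls were at the pairs C53C7.t2 and C53C7.t1 (-0.31), Y7A9D.t1 and Y7A9D.t2 (-0.30) and R04D3.t2 and R04D3.t3 (-0.27), with adjusted p between 0.0153 and 0.0415 (edgeR). Depleted and undepleted libraries overlapped at all 6 peaks that fell. Complete separation of the groups was seen at 3 tRNA gene peaks with the depleted libraries above and 1 with them below, against 2.13% and 2.49% of all peaks.

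These calls rest on the factors of unwanted variation in the model. Without them 0 peaks rose and 0 fell upon RPOA-2 depletion (F27D9.t1 had an adjusted p of 0.0834, edgeR), and with control peaks chosen in the GRWD-1 strains instead, or with 1 factor, 1 rose and 0 fell. The 3 rises became 1 without RPOA-2 depleted replicate 2, RPOA-2 undepleted replicate 1 or RPOA-2 undepleted replicate 4, and 2 without RPOA-2 depleted replicate 3 or 4 or RPOA-2 undepleted replicate 2. The 6 falls became 0 without RPOA-2 depleted replicate 2 or RPOA-2 undepleted replicate 3 and 1 without RPOA-2 undepleted replicate 4. They became 2 without RPOA-2 depleted replicate 3, RPOA-2 depleted replicate 4 or GRWD-1 depleted replicate 3, and 3 without RPOA-2 depleted replicate 1, RPOA-2 undepleted replicate 2 or GRWD-1 undepleted replicate 1. F27D9.t1 passed without each of the 16 libraries in turn, with log2 fold changes of 0.64 to 0.81. Each of the other 8 peaks missed the threshold without at least 3 of the 16, the C48C5 pair without RPOA-2 depleted replicate 2 (adjusted p = 0.744, edgeR), RPOA-2 depleted replicate 3 (0.0703) or RPOA-2 undepleted replicate 3 (0.389).

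Upon GRWD-1 depletion 5 tRNA gene peaks rose and 10 fell (edgeR, adjusted p under 0.05). There were 3 rises and 4 falls on the autosomes and 2 rises and 6 falls on X. Of the tRNA gene peaks 1.36% rose and 2.72% fell, against 0.57% and 0.81% of all peaks and 1.27% and 1.99% of the 5421 peaks with a similar mean CPM. The rises, also those on the autosomes, include F44A2.t1, a peak found only through the GRWD-1 depleted libraries (described below). Its rise was fixed in advance, so nothing is read from the share that rose. The median log2 fold change was 0.02 on the autosomes and -0.05 on X, against 0.0059 over all tested peaks, 0.02 over all peaks on II to V and -0.02 over all peaks on X, so the values below 0 on X were not limited to the tRNA gene peaks. The depleted libraries lay wholly above the undepleted ones at 2 tRNA gene peaks and wholly below at 4, against 1.76% and 2.12% of all peaks. The 2 were the Y7A5A pair and F44A2.t1, whose separation was fixed in advance too, so nothing is read from the share above.

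F27D9.t1 rose again, with 115, 168, 172 and 180.0 CPM in GRWD-1 depleted and 82.3, 107, 94.5 and 117 CPM in GRWD-1 undepleted larvae. Only the lowest depleted library overlapped with the undepleted ones. The change of 0.63 on the log2 scale had a standard error of 0.0762 and an adjusted p of 2.65e-09 (edgeR). The pair Y7A5A.t3 and Y7A5A.t2 on X, which covers no protein-coding gene, had 35.1 ± 9.53 CPM in GRWD-1 depleted and 22.9 ± 4.70 CPM in GRWD-1 undepleted larvae (SD, n = 4 each), with the lowest depleted library, at 27.2 CPM, just above the highest undepleted one (log2 fold change 0.64, adjusted p = 0.000262, edgeR). The other rises besides F44A2.t1 were at ZK617.t1, in a peak that covers an exon of unc-22, which encodes the muscle protein twitchin (0.53, adjusted p = 0.0173, edgeR), and at F35H8.t1 on chromosome II (0.36, adjusted p = 0.0163, edgeR).

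The largest fall upon GRWD-1 depletion was at the C52E12 pair. It had 40.3, 37.5, 48.7 and 46.7 CPM in GRWD-1 depleted and 58.3, 67.0, 64.8 and 94.2 CPM in GRWD-1 undepleted larvae, with no overlap (log2 fold change -0.68, standard error 0.0960, adjusted p = 3.12e-07, edgeR). The C48C5 pair fell as well, with 42.9, 58.2, 69.2 and 56.1 CPM in GRWD-1 depleted and 56.1, 91.4, 92.1 and 94.5 CPM in GRWD-1 undepleted larvae (log2 fold change -0.55, adjusted p = 3.06e-05, edgeR), overlapping only through the low replicate 1 of the undepleted larvae. A peak over the pair H08J11.t5 and H08J11.t1, which also covers the 5′ untranslated region of ajm-1, an apical junction gene of epithelia, had 78.1, 88.9, 105 and 95.9 CPM in GRWD-1 depleted and 100.1, 125, 139.6 and 145 CPM in GRWD-1 undepleted larvae (log2 fold change -0.46, adjusted p = 3.33e-05, edgeR). At H08J11 a single depleted library reached into the range of the undepleted ones.

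Neighbouring tRNA genes fell together at a pair of places. On X, C05E7.t1 and C05E7.t2 lie in separate peaks that end at 12938065 and start at 12938084. C05E7.t1 had 14.9 ± 1.95 CPM in GRWD-1 depleted and 20.8 ± 1.53 CPM in GRWD-1 undepleted larvae (SD, n = 4 each; log2 fold change -0.52), and C05E7.t2 had 7.99 ± 0.685 and 12.6 ± 0.908 CPM (SD, n = 4 each; log2 fold change -0.63). Depleted and undepleted libraries did not overlap at either, although the adjusted p of C05E7.t2 was 0.0326 and that of C05E7.t1 was 0.0161 (edgeR). On chromosome II the opposed pairs ZK970.t4 with ZK970.t1 and ZK970.t3 with ZK970.t2 lie in peaks of 1789 and 975 bp that both fell, by 0.35 and 0.39 on the log2 scale. The remaining named falls were at Y54G2A.t5 (-0.43) and at the pair C28G1.t3 and C28G1.t2 (-0.38), with adjusted p of 0.00816 and 0.0110 (edgeR).

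As upon RPOA-2 depletion, the number of calls moved with the model and with single libraries. Without the factors 1 tRNA gene peak rose, which was F44A2.t1, and 1 fell. With 3 factors 4 rose, F44A2.t1 among them, and 0 fell. The 10 falls became 0 without RPOA-2 depleted replicate 2, a library of the other strain that enters through the shared factors, 3 without GRWD-1 depleted replicate 2, 4 without GRWD-1 undepleted replicate 2 or RPOA-2 undepleted replicate 3, 5 without GRWD-1 depleted replicate 4 or GRWD-1 undepleted replicate 3, and 6 without GRWD-1 depleted replicate 3. The 5 rises became 3 without RPOA-2 depleted replicate 2 or GRWD-1 depleted replicate 3, and 8 without RPOA-2 undepleted replicate 3. F27D9.t1 and the Y7A5A pair passed without each library in turn. The C52E12, C48C5 and H08J11 pairs missed the threshold when RPOA-2 depleted replicate 2 was left out (adjusted p = 0.0617, 0.454 and 0.384, edgeR), and with 3 factors (0.0602, 0.333 and 0.233). Without factors F27D9.t1 had an adjusted p of 0.0828 and the Y7A5A pair 0.350 (edgeR), so both missed the threshold. Each of the other 8 named calls besides F44A2.t1 missed it without at least 4 of the 16 libraries.

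**Figure D3:**
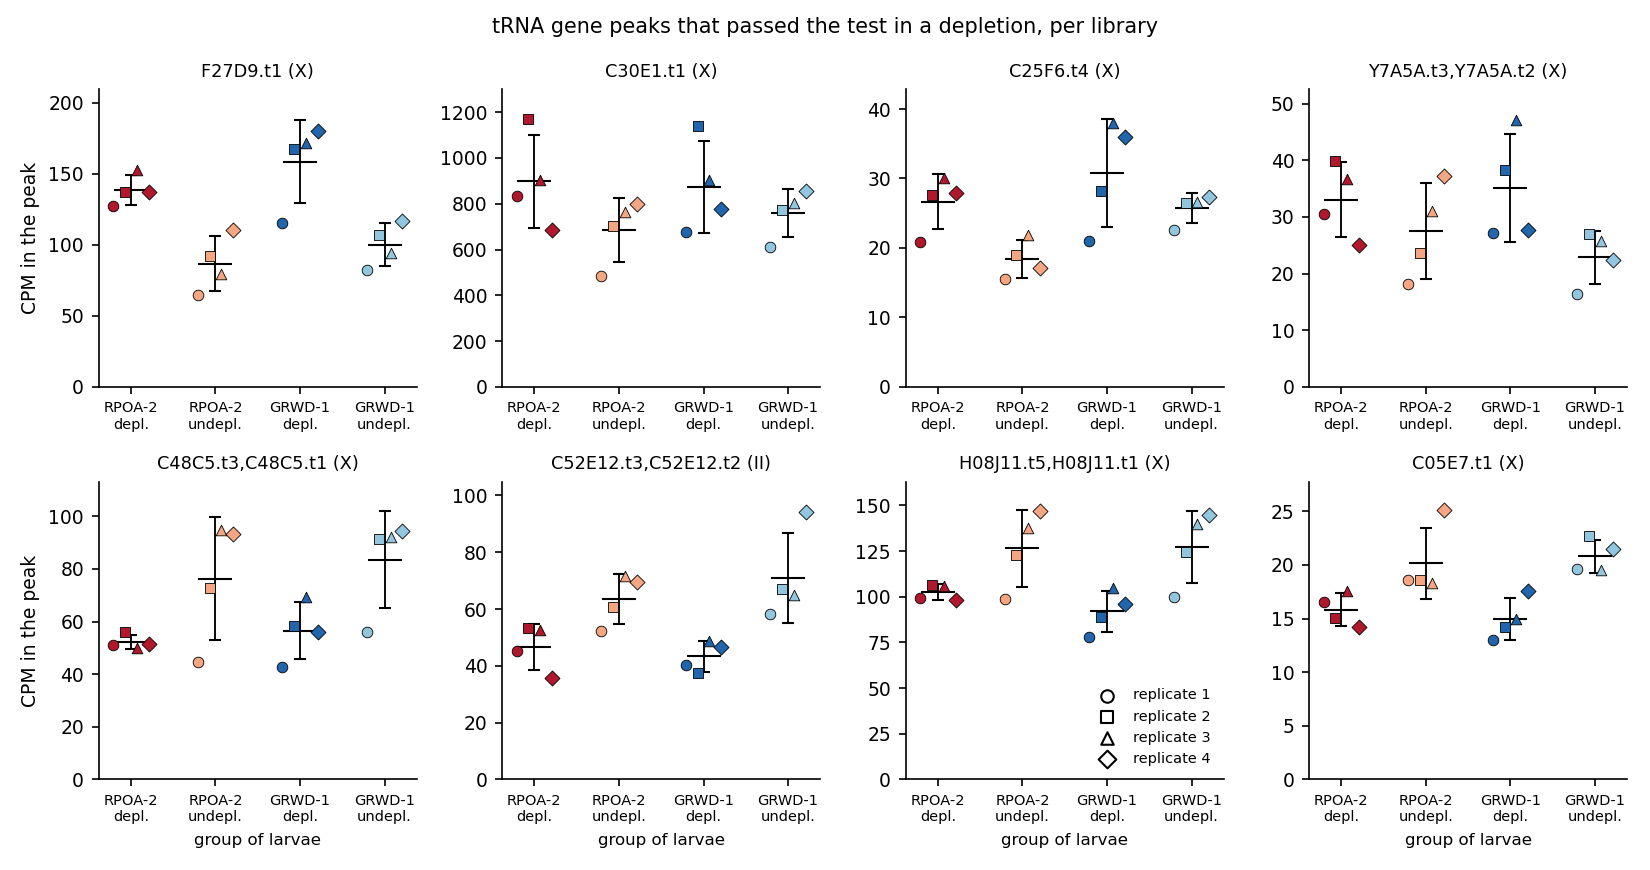
CPM per library at 8 tRNA gene peaks that passed the test in at least one depletion (chromosome in parentheses). Point shapes give the replicate number and bars the mean and SD of 4 libraries; F27D9.t1 has its 4 RPOA-2 depleted libraries between 127 and 152 CPM, above the RPOA-2 undepleted libraries, and the pair C52E12.t3,C52E12.t2 has its 4 GRWD-1 depleted libraries between 37.5 and 48.7 CPM, below the GRWD-1 undepleted libraries.

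A peak at F44A2.t1 on chromosome V (V:9317893-9318644), whose tRNA gene lies 31 bp from the middle and which also covers the 5′ untranslated region of the potassium channel gene kvs-3, differed from all the others. It had 889, 631, 1102 and 230 reads in the GRWD-1 depleted libraries, at most 4 in each of the other 12, and 0 in 8 of those. The other 12 libraries held 10 reads in it together, while the peak with the next fewest held 166 in them. With so few reads elsewhere, this peak can have entered the merged set only through the GRWD-1 depleted libraries, so it had to differ between GRWD-1 depleted and undepleted larvae. Its counts are therefore given as a description, with no fold change and no p for GRWD-1 depletion, and the 5 rises upon GRWD-1 depletion include it.

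The peaks around F44A2.t1 had reads in every group. The nearest one, which starts 489 bp after it, had 10.1 ± 0.379 CPM in GRWD-1 depleted and 8.14 ± 1.20 CPM in GRWD-1 undepleted larvae (SD, n = 4 each; log2 fold change 0.31, adjusted p = 0.577, edgeR), and 6.02 ± 1.37 CPM in RPOA-2 depleted and 9.13 ± 3.95 CPM in RPOA-2 undepleted larvae (SD, n = 4 each). Its mean was highest in GRWD-1 depleted larvae, as at F44A2.t1, and RPOA-2 depleted over GRWD-1 depleted larvae it had a log2 fold change of -0.85 that missed the threshold (adjusted p = 0.0630, edgeR). On the other side no peak lay within 18393 bp, and the next one there had 22.3 ± 2.48 CPM in GRWD-1 depleted and 22.9 ± 4.04 CPM in GRWD-1 undepleted larvae (SD, n = 4 each; log2 fold change -0.04). None of the 6 flanking peaks passed the test upon GRWD-1 depletion, with adjusted p of 0.577 and above (edgeR), or between RPOA-2 depleted and GRWD-1 depleted larvae, with adjusted p of 0.0630 and above (edgeR). A difference in the DNA of the strains at this place was not tested, and it cannot be told apart from the depletion here.

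**Figure D4:**
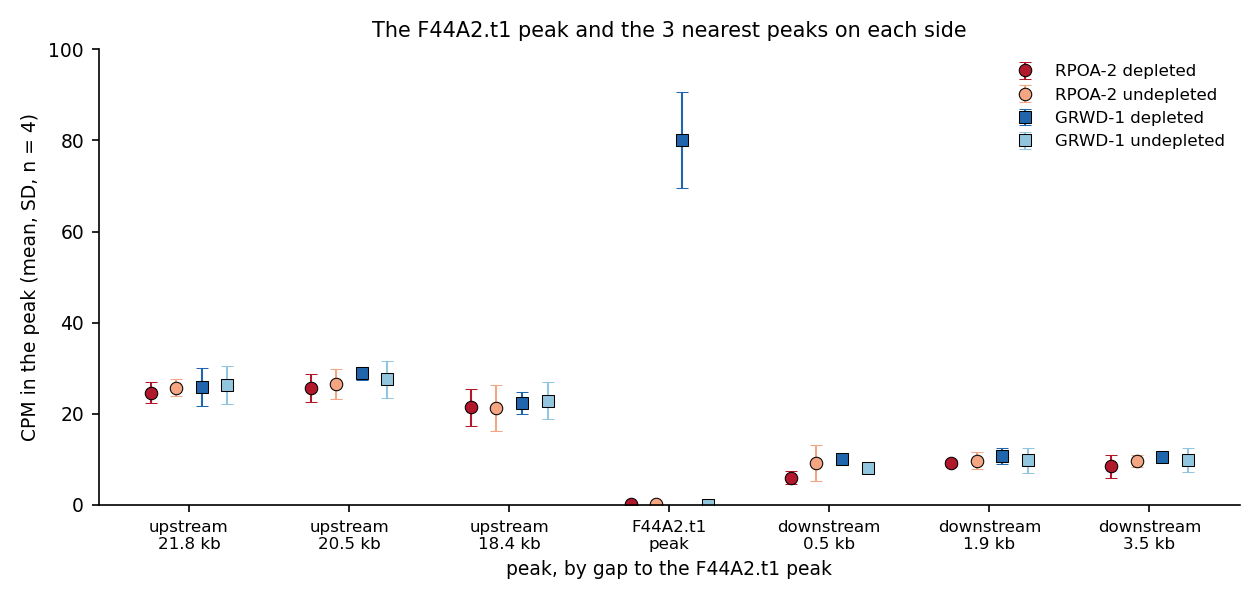
CPM (mean and SD, n = 4) in the F44A2.t1 peak and in the 3 nearest peaks on each side, ordered along chromosome V, with the gap to the F44A2.t1 peak in kb. GRWD-1 depleted larvae average 80.0 CPM at F44A2.t1 and every other group under 1 CPM, while the flanking peaks have means of 6.02 to 28.8 CPM; the nearest one averages 10.1 CPM in GRWD-1 depleted and 6.02 CPM in RPOA-2 depleted larvae.

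Both depletions were then set side by side. The 9 peaks called upon RPOA-2 depletion and the 15 called upon GRWD-1 depletion (F44A2.t1 among them) had 3 in common, 33.3% of the first list and 20% of the second: F27D9.t1, higher in both, and the C48C5 and C52E12 pairs, lower in both. Over all peaks, 129 were called in both, 26.3% of the 490 called upon RPOA-2 depletion and 32.1% of the 402 called upon GRWD-1 depletion. Of the 20 tRNA gene peaks other than F44A2.t1 called in either depletion, 19 had log2 fold changes of the same sign in both. Among all 763 peaks called in either the share was 92.5%, so nothing particular to tRNA genes is read from this. F35H8.t1 had 0.36 upon GRWD-1 depletion and -0.09 upon RPOA-2 depletion. All of these values come from 1 fit with shared factors. At F44A2.t1 the RPOA-2 strains had too few reads for a sign.

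A direct comparison of RPOA-2 depleted with GRWD-1 depleted larvae called 1 tRNA gene peak, F44A2.t1, against 0.13% of all peaks (edgeR). The test of the difference between both depletion effects called F44A2.t1 too, against 0.0103% of all peaks, and it did not without RPOA-2 undepleted replicate 2, which holds 4 of its few reads (adjusted p = 0.378, edgeR). As this peak was found only through the GRWD-1 depleted libraries, nothing is read from either call. For no other tRNA gene peak was a difference between both depletions shown. RPOA-2 undepleted and GRWD-1 undepleted larvae, which both keep the tagged protein, differed at 0 tRNA gene peaks by edgeR and at 0 by DESeq2, with 9 at an unadjusted p under 0.05, against 0.00343% of all peaks called.

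**Figure D5:**
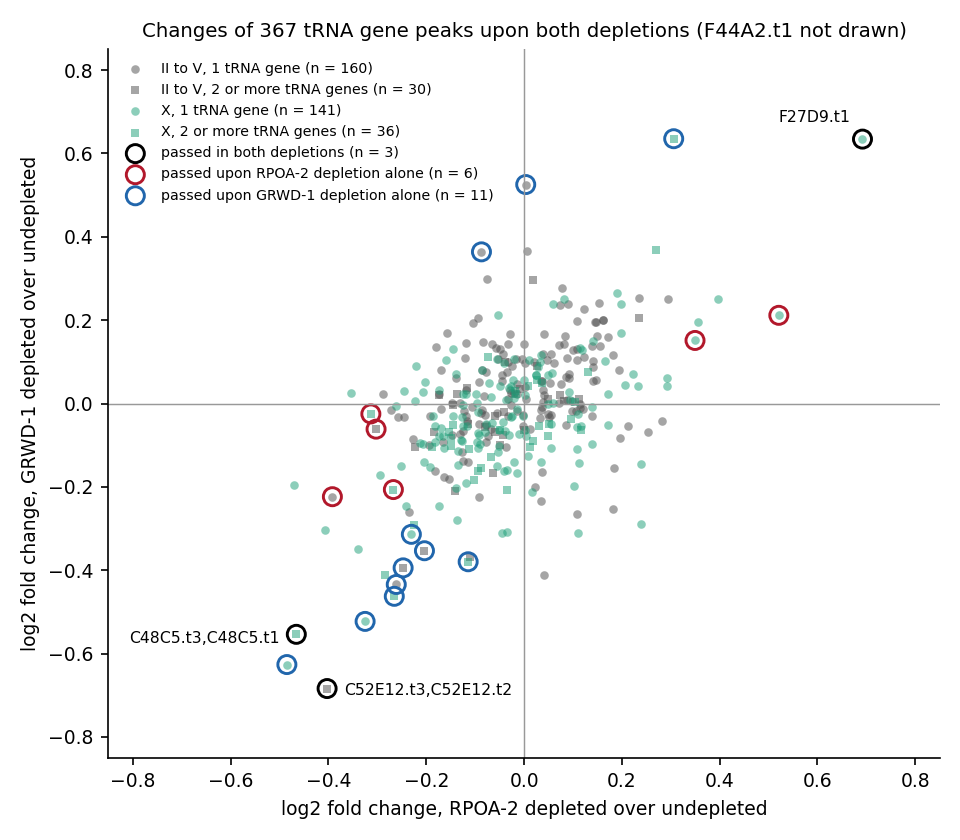
Log2 fold changes of the tRNA gene peaks upon RPOA-2 depletion (x axis) and GRWD-1 depletion (y axis), depleted over undepleted larvae, with F44A2.t1 left out. Squares hold 2 or more tRNA genes and circles 1, green points lie on X, and rings mark an adjusted p under 0.05; F27D9.t1 (0.69 and 0.63) and the pairs C48C5.t3,C48C5.t1 (-0.47 and -0.55) and C52E12.t3,C52E12.t2 (-0.40 and -0.68) passed in both.

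Peaks with several tRNA genes and peaks with a single one were set side by side next. Upon RPOA-2 depletion 5 of 66 peaks with 2 or more tRNA genes fell and 0 rose, while of 302 peaks with 1 tRNA gene 1 fell and 3 rose. That is 7.58% falling for 2 or more genes, against 0.487% of all peaks and 2.52% of the 2422 peaks with a mean CPM within the quartiles of the peaks with 2 or more tRNA genes (67.2 to 212 CPM), a set chosen after the data were seen. Of the 2422, however, 5.37% rose, so that 7.89% were called either way, against 7.58% of the 66. For 1 tRNA gene 0.331% fell and 0.993% rose, against 0.487% and 1.19% of all peaks. The 5 falls became 0 without factors, with 1 factor or with control peaks chosen in the GRWD-1 strains. The median log2 fold change was -0.06 for 2 or more genes and -0.03 for 1. Upon GRWD-1 depletion 6 of the 66 fell and 1 rose, and 4 of the 302 fell and 4 rose (F44A2.t1 among them), with medians of -0.06 and 0.0036. The 6 are 9.09%, against 0.81% of all peaks and 2.73% of the 2422, and they became 1 without factors, 3 with 1 factor, 4 with control peaks chosen in the GRWD-1 strains and 0 with 3 factors. Called either way were 10.6% of the 66 and 4.29% of the 2422. With those control peaks all 4 medians were above 0, from 0.02 to 0.09. The same order of the medians was seen on the autosomes (-0.06 and -0.0013 upon RPOA-2 depletion, -0.04 and 0.03 upon GRWD-1 depletion) and on X (-0.06 and -0.04, -0.07 and -0.03). Peaks with 2 or more tRNA genes held more reads, with a median of 803 a library against 415, and smaller standard errors (0.0812 and 0.0944 upon RPOA-2 depletion), and the part of this in the number of calls was not tested. Of the 42 peaks with a pair on opposite strands, 4 fell and 0 rose upon RPOA-2 depletion, and 6 fell and 1 rose upon GRWD-1 depletion. Of the 15 with a pair on the same strand, 1 and 0 fell and 0 rose. In each depletion 28.6% of the first and 26.7% of the second had an unadjusted p under 0.05 (edgeR). Their medians were -0.05 and -0.07 upon RPOA-2 depletion and -0.05 and -0.06 upon GRWD-1 depletion, so nothing is read from the orientation.

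The 3 peaks holding the most tRNA genes are given for their values alone, and no direction is read from them. The peak over F22F1.t2 to F22F1.t7 on X (X:8154227-8157596), with 6 tRNA genes in 3370 bp, had 276, 321, 374 and 270.4 CPM in RPOA-2 depleted and 215, 354, 358 and 424 CPM in RPOA-2 undepleted larvae, and these overlap (-0.09 on the log2 scale in the fit, adjusted p = 0.654, edgeR). It had -0.16 upon GRWD-1 depletion (adjusted p = 0.334, edgeR). For the 4 same-strand genes Y65A5A.t1 to Y65A5A.t4 on chromosome IV the values were -0.14 and -0.21 (adjusted p = 0.371 and 0.0957, edgeR), and for the 4 genes K01A12.t2 to K01A12.t5 on X they were -0.04 and -0.21 (adjusted p = 0.926 and 0.277, edgeR). None of these 3 peaks passed the test.

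Further peaks had large fold changes that the test did not separate from the spread. Upon RPOA-2 depletion the autosomal peaks with the highest log2 fold changes were Y73F8A.t4 (0.29), VK10D6R.t1 (0.28) and ZK262.t1 (0.25), and on X the lowest were C05E7.t2 (-0.49) and B0395.t1 (-0.47), with adjusted p between 0.244 and 0.634 (edgeR). W07G4.t1, in an intron of the cadherin gene fmi-1, had 0.37 and F22B7.t2 had -0.41 upon GRWD-1 depletion, with adjusted p of 0.189 and 0.319 (edgeR). All 7 are low peaks, with 4.81 to 25.2 CPM in RPOA-2 depleted larvae.

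The genes of the RNA polymerase III machinery and of tRNA maturation were looked at through the peaks at their own 5′ ends. Of 25 such genes, 16 had a peak within 1000 bp. Upon RPOA-2 depletion 0 of the 16 passed the test, with 0 at an unadjusted p under 0.05 and a lowest adjusted p of 0.417 (edgeR), and upon GRWD-1 depletion 0 passed, with 0 at an unadjusted p under 0.05 and a lowest adjusted p of 0.466 (edgeR). The median log2 fold changes were 0.07 and 0.01. The peak at rpc-1, the largest subunit of RNA polymerase III, had 0.14 upon RPOA-2 depletion and 0.10 upon GRWD-1 depletion, and that at mafr-1, the MAF1 gene, had -0.07 and 0.01. At hoe-1, the RNase Z that trims the 3′ end of tRNA precursors, the values were 0.30 and -0.14, and at xpo-3, the tRNA exportin, they were 0.01 and 0.14. RNA levels were not analysed here, so none of this speaks of transcription.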

How the data were processed

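As the authors describe it, reads were trimmed (fastp), aligned to WBcel235 (bowtie 2) and stripped of mitochondrial, duplicate and poorly mapped reads. Peaks were called in each library (MACS2) and merged over libraries (Homer), and reads were counted in the merged peaks (featureCounts 2.0.1). The deposited values are raw counts per merged peak, 2337415 to 13010378 reads a library.

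The test across all 29131 peaks used edgeR 4.0.16 under R 4.3.3 (glmQLFit, glmQLFTest, TMM, filterByExpr, which removed 0 peaks), with 4 genotypes and 2 factors computed after RUVg from 13897 control peaks (adjusted p of at least 0.75 in DESeq2 1.42.0, RPOA-2 comparison). P-values were adjusted by Benjamini-Hochberg over all peaks, with a threshold of 0.05. Standard errors are the log2 fold change over the root of F. Other factors, control peaks, scalings, filters, tools, a replicate block, peaks without protein-coding genes and each library left out were tried. Tested on simulated data for RPOA-2 depletion (29131 peaks, 200 changed), the fit recovered 95% of changes of 1 and 31% of changes of 0.5 on the log2 scale, with 7 false calls. The simulation gave all peaks the same dispersion and all libraries of a replicate number the same shift. Its rates therefore may not hold for the real libraries.

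Members and lists were chosen with earlier results of these data known. Named were the 12 peaks with the smallest adjusted p under 0.05 per contrast, the 3 (autosomes) or 2 (X) largest changes each way, the 3 and 2 highest levels, and the 3 with most tRNA genes. The sets of similar length and similar CPM were chosen after the data were seen. Genome sequence was not used here, so sequences, anticodons and identical copies were not analysed. RefSeq also lists 533 of the 546 genes as tRNA genes; 13 did not match.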

Additional observations from a re-analysis of the deposited data

Results flagged for a closer look

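A sample far from the other 3 of its group was looked for at 34 named peaks and in the shares of reads, 144 groups of 4 libraries in all, and 11 were found (7.64%); chance flags about 1 in 20. In 7 of the 11 the library was GRWD-1 undepleted replicate 1 and it was low: the C48C5 pair had 56.1 CPM there against 91.4 to 94.5 in the others, the Y7A9D pair 189.9 against 252 to 263, C25F6.t4 22.7 against 26.5 to 27.3, the R04D3 pair 153 against 219 to 229, the T23F1 pair 147 against 247 to 268, the 6 F22F1 genes 268 against 402 to 423 and the 4 K01A12 genes 81.8 against 122 to 126. RPOA-2 undepleted replicate 4 was high at C05E7.t1 (25.1 CPM) and at ZK262.t1 (14.5 CPM). At F44A2.t1 the others of the group were at 0 where RPOA-2 depleted replicate 3 had 0.835 CPM and GRWD-1 undepleted replicate 1 had 0.276 CPM, which are 2 reads each.

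The test of the difference between both depletion effects called F44A2.t1 (adjusted p = 1.67e-06, edgeR). This peak was found only through the GRWD-1 depleted libraries, with 10 reads in the other 12 libraries together, so no difference is read from the test. The call was lost without RPOA-2 undepleted replicate 2 (adjusted p = 0.378, edgeR), and a difference in the DNA of the strains was not tested.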

How the results depend on the processing

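Counts of calls depended on the factors of unwanted variation. The 3 rises upon RPOA-2 depletion became 1 with 1 factor, 1 with control peaks from the GRWD-1 comparison and 0 without factors, and the 6 falls became 0, 0 and 0. The 5 rises upon GRWD-1 depletion became 1 without factors, which was F44A2.t1. The 10 falls became 4 with 1 factor, 4 with the GRWD-1 control peaks, 1 without factors and 0 with 3 factors. The cause of these changes was not tested. The use of 1 or 3 factors and of GRWD-1 control peaks for the medians was chosen after seeing the data; the median log2 fold changes ranged from -0.07 to 0.09 on the autosomes and -0.12 to 0.08 on X for RPOA-2, and from -0.03 to 0.13 and -0.12 to 0.09 for GRWD-1. Leaving out 1 library at a time gave 1 to 3 rises and 0 to 8 falls upon RPOA-2 depletion, 3 to 8 rises and 0 to 11 falls upon GRWD-1 depletion, 1 to 2 calls between the depleted groups and 0 to 1 for the difference between the effects. Over peaks without a protein-coding gene there were 1 rise and 3 falls upon RPOA-2 depletion, 2 rises and 5 falls upon GRWD-1 depletion, 0 calls between depleted groups and 0 for the difference, and the autosomal shares of reads were 0.345% in RPOA-2 depleted, 0.353% in RPOA-2 undepleted, 0.386% in GRWD-1 depleted and 0.378% in GRWD-1 undepleted larvae, with 0.584, 0.622, 0.648 and 0.660% on X in the same order. DESeq2 called 9 and 14 tRNA gene peaks upon RPOA-2 and GRWD-1 depletion and 0 between depleted groups, where it gave no adjusted p for F44A2.t1. No named value changed sign where it had been called.

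Same-numbered libraries of different groups deviated together more than others, with a median r of 0.12 against -0.05, and a library set against another group matched its own number best in 31 of 48 cases, a hint from the data that the numbers share a batch. The labels do not say that the number marks the batch, and r was over 0.1 in 13 of 24 same-numbered pairs, not in all. It was 0.13 to 0.46 for replicates 1 and 2 and -0.02 to 0.11 for replicates 3 and 4. The main comparisons were made without pairing. With the replicate block in place of the factors there were 3 rises and 2 falls upon RPOA-2 depletion, 4 rises and 5 falls upon GRWD-1 depletion and 2 calls between depleted groups; with the replicate block and the factors there were 2 and 4, 5 and 9, and 1.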
